A study of Mus musculus with 91 samples.

Results

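The genes described here encode proteins of the cytosolic ribosome, the large-subunit Rpl and small-subunit Rps families. They were chosen as a fixed list of 51 Ensembl identifiers, of which 50 have a row in the deposited table of 14355 genes. The remaining identifier was not analysed here. Neither the table nor the reference paired identifiers with symbols, so only Rpl22 (ENSMUSG00000028936), whose symbol came with the list, is called by name. For the same reason the other members are not assigned to a subunit, and markers of neurons, glia and blood could not be used to check the labelled cell types.

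Ribosome-bound mRNA was pulled down from nucleus accumbens punches of mice that carry the RiboTag allele, a Cre-inducible, HA-tagged form of Rpl22. Cre was driven in D1 neurons by the Drd1-Cre line and in D2 neurons by the A2a-Cre line, so mouse line and cell type cannot be told apart. The mice were over 10 weeks old and were kept on a cycle of 12 h light and 12 h dark, and the labels name no treatment. Tissue of 2 mice was pooled per library. Males and females were sampled at ZT2, ZT6, ZT10, ZT14, ZT18 and ZT22, where ZT0 is lights on. The 45 D1 libraries (23 female, 22 male) and 46 D2 libraries (23 of each sex) form 24 groups of 3 or 4. Each title also holds a letter from A to E, whose meaning is not stated. Letters A, C and D cover all times, as does B in D2 neurons, whereas B has no library at ZT18 in D1 neurons. Letters A to D hold both sexes, except that B at some times and, in D1 neurons, D at ZT22 lack a sex. A single D1 library has letter E.

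Ribosomal proteins, together with ribosomal RNA, build the particle that translates mRNA. Their own mRNAs are translated as a group, because many begin with a run of pyrimidines (C or T) at the 5′ end. Translation of such messages is tied to growth and nutrient signalling through the mTOR pathway. In a ribosome pull-down these mRNAs are counted as the cargo of ribosomes, not as the protein in them. Rpl22 is a component of the large subunit and, in this design, the protein by which ribosomes are captured. Reads of tagged and untagged Rpl22 mRNA were not separated in the table.

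Rpl22 is shown because it is the only member that could be matched to a promoter and because the window printed holds a pyrimidine run. The window covers 40 bases before and 20 after an annotated start, at chr4:152325686-152325745 on the plus strand (RefSeq, GRCm38.p6). It lies at 1 of the 2 annotated starts of Rpl22 (gene at 152324436 to 152334082), and capitals mark the run.

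Rpl22: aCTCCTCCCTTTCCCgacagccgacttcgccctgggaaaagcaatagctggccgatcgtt

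The run of C and T is 14 bases long. It lies before the annotated start, outside the mRNA annotated from there. The window at the other annotated start, at 152324436, holds no run of 10 or more. On the sense strand, a run of at least 10 pyrimidines was found in 26 of 67 such windows of genes with Rpl or Rps symbols (38.81%) and in 3853 of 32851 windows of all genes (11.73%). This is a description of the letters and was not tied to the counts, since the other members could not be matched to their windows.

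All 50 members had counts in every library, and the lowest count of a member in a library was 17. A library held between 6872165 and 24665262 counts (mean 14296688, n = 91). Mean levels of single members lay between 7.25 and 184 CPM (counts scaled to a common TMM-adjusted total). Gene lengths were not used, so levels are not ranked between genes. Many ribosomal protein genes have processed pseudogenes, and how the counting treated reads that match several places is not given. The absolute levels are uncertain for that reason. Together the members took 0.23% ± 0.04 of the counts in D1 libraries (SD, n = 45) and 0.21% ± 0.05 in D2 libraries (SD, n = 46). Within a member, the highest library exceeded the lowest by a median of 3.65-fold, and by 1.97-fold to 13.8-fold over the 50 members.

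3 D1 male libraries stood apart, those of letter B at ZT10 and ZT22 and of letter D at ZT18. In that order they had 789, 722 and 205 of the 14355 genes at a count of 0, against at most 3 in the other 42 D1 libraries. Members were above all of those 42 libraries in 23, 26 and 8 cases, and below all of them in 6, 6 and 8. Over all genes the shares above were 23.01%, 25.75% and 19.85%, and the shares below were 28.03%, 29.56% and 21.12%. Rpl22 was at 95.0, 71.3 and 61.0 CPM in these libraries, against at most 40.2 CPM in the other 42. Results that rest on them are given with and without them.

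The libraries were first compared by letter. In D2 neurons the members took 0.27% ± 0.02 of the counts in letter A (SD, n = 12) and 0.24% ± 0.02 in letter B (SD, n = 10). They took 0.16% ± 0.02 in letter C and 0.17% ± 0.01 in letter D (SD, n = 12 each). The lowest library of letters A and B (0.2259%) was above the highest of C and D (0.1948%), so these libraries did not overlap. In D1 neurons the shares were 0.23% ± 0.02 in letter A (n = 12), 0.28% ± 0.03 in B (n = 9), 0.21% ± 0.03 in C (n = 12) and 0.22% ± 0.03 in D (SD, n = 11). The letter E library was at 0.19%. Without the 3 libraries that stand apart, letter B was at 0.26% ± 0.02 (SD, n = 7). The letters of D1 neurons overlapped, and B was high there where A and B were both high in D2 neurons.

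**Figure D1:**
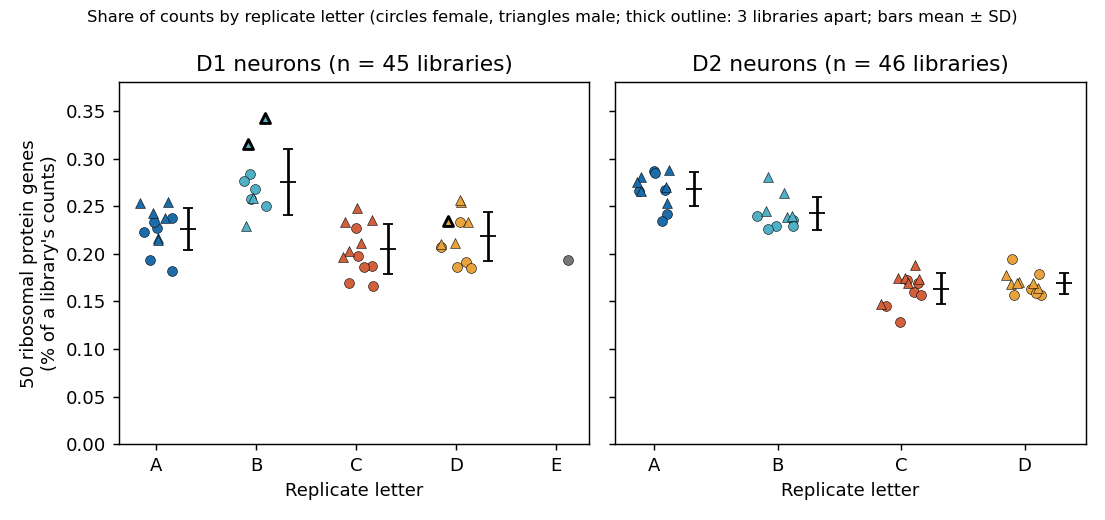
Share of each library's counts taken by the 50 ribosomal protein genes (y axis, percent) by replicate letter (x axis), for D1 and D2 neurons; points are libraries, thick outlines mark the 3 that stand apart, and bars are mean ± SD. In D2 neurons no A or B library lies below 0.2259% and no C or D library above 0.1948%, while D1 letters overlap.

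Each member was tested for a difference among letters A to D, and the direction was given as the mean of A and B minus the mean of C and D. Calls and adjusted p-values belong to the test among all these letters. The differences and their SE belong to A and B minus C and D, which had no call of its own. In D2 neurons 49 of the 50 members differed, where 85.6% of all genes did. In all 49 the fitted mean of A and B was above that of C and D, and 42.6% of all genes were called with that direction. The median difference was 0.72 on the log2 scale (1.65-fold), with a range from 0.06 to 1.05. Over all genes the median was -0.004 and the 90th percentile 0.68. In 17 members (34%) every A and B library was above every C and D library, which held for 9.43% of all genes. This split of the letters was chosen with earlier results of these data known. Library totals also moved with the letters. D2 libraries averaged 19727033 counts in A and 16241681 in B, against 11336342 in C and 10904585 in D. With the total as a covariate the median difference was again 0.72, and the median SE went from 0.046 to 0.082. Since totals moved with the letters, that fit cannot tell depth and letter apart. Other differences between letters were not tested.

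ENSMUSG00000049517 had the lowest p in this comparison. Its level ranged from 63.4 CPM through a median of 79.3 to 99.9 CPM in the 22 D2 libraries of A and B. In the 24 of C and D it ranged from 27.5 through 41.2 to 49.9 CPM. These sets did not overlap, and the difference was 0.95 ± 0.04 (SE) on the log2 scale (edgeR, adjusted p = 2.82e-25). ENSMUSG00000003970 ranged from 82.1 through 108.8 to 135.2 CPM in A and B. In C and D it ranged from 34.8 through 54.8 to 66.4 CPM, again without overlap, for a difference of 1.02 ± 0.04 (SE, edgeR, adjusted p = 5.01e-25).

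Rpl22 moved less with the letters than most members. Its levels in D2 libraries were 34.0 to 45.2 CPM in A and B (median 38.9) and 26.4 to 42.9 CPM in C and D (median 32.3). The ranges overlapped, and the difference was 0.27 ± 0.04 (SE) on the log2 scale (edgeR, adjusted p = 3.85e-07). Only ENSMUSG00000028234 and ENSMUSG00000037805, identified after their values were seen, had smaller differences. The first differed by 0.14 ± 0.04 (SE, edgeR, adjusted p = 0.0127). The second was the 1 member not called, at 14.5 to 22.2 CPM in A and B and 13.9 to 23.8 CPM in C and D (difference 0.06 ± 0.05, SE, edgeR, adjusted p = 0.175).

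In D1 neurons 42 members differed between letters, where 58.4% of all genes did. In all 42 the fitted mean of A and B was above that of C and D, and 30% of all genes were called with that direction. Without letter B 31 members were called, 30 of them with that direction (3595 of 14355 genes), with a median of 0.185. The median difference was 0.32 on the log2 scale (1.25-fold), less than in D2 neurons, and with the total as a covariate it was 0.25. Without the 3 libraries that stand apart, 47 members were called, all with the same direction (33.6% of all genes), with a median of 0.31. D1 totals averaged 15452263, 14848957, 14369976 and 11833152 counts in A, B, C and D.

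ENSMUSG00000041841 had the lowest p in D1 neurons. It was lowest in C (9.81 to 18.1 CPM, median 15.1), intermediate in A (14.9 to 23.9 CPM, median 19.3) and D (15.2 to 42.9 CPM, median 22.1), and highest in B (19.7 to 68.5 CPM, median 27.1). Its difference of A and B minus C and D was 0.48 ± 0.10 (SE) on the log2 scale. The test among letters gave an adjusted p of 3.16e-07 (edgeR). For ENSMUSG00000045128 the medians were 44.4, 58.1, 32.2 and 37.6 CPM in A, B, C and D. Its difference was 0.50 ± 0.07 (SE, edgeR, adjusted p = 4.73e-07). Rpl22 had medians of 34.3, 36.5, 33.3 and 35.0 CPM in A, B, C and D, and a difference of 0.22 ± 0.08 (SE, edgeR, adjusted p = 0.0014). Its call rested on the 3 libraries that stand apart: without them the difference was 0.10 (adjusted p = 0.0533), and without letter B it was 0.005 (adjusted p = 0.524).

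**Figure D2:**
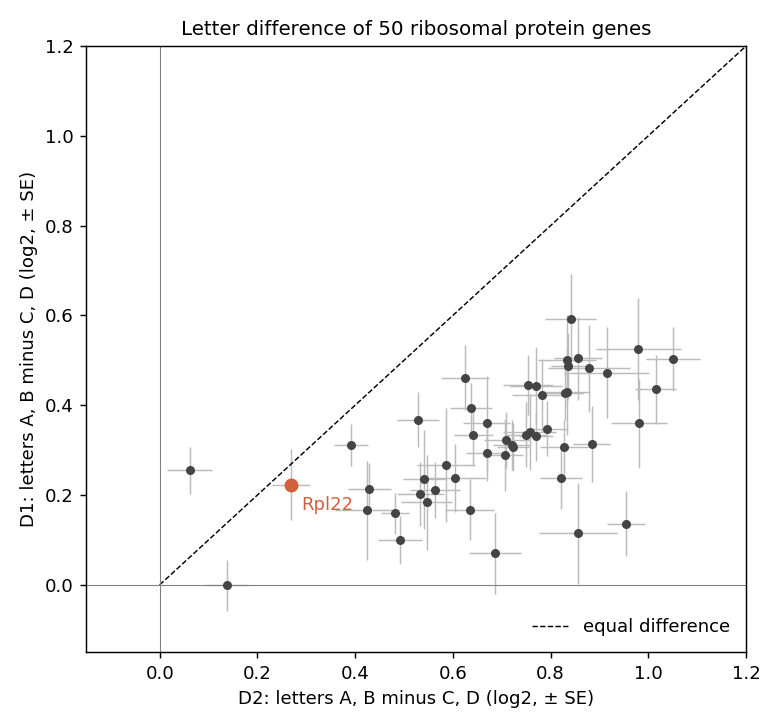
Difference of letters A and B minus C and D in D2 (x axis) and D1 neurons (y axis), log2 ± SE, for the 50 ribosomal protein genes; the dashed line marks equal differences. Most members lie below the line, with medians of 0.72 in D2 and 0.32 in D1 neurons.

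A test of the letter terms of D1 against those of D2 neurons was added after the data had been seen. It passed for 48 of 50 members and 64.8% of all genes. The difference between A, B and C, D was smaller in D1 neurons for 49 members, and D1 minus D2 had a median of -0.38 on the log2 scale. ENSMUSG00000049517 had the lowest p. In D1 neurons its medians were 59.3, 77.3, 55.4 and 59.2 CPM in A, B, C and D. In D2 neurons they were 88.6, 72.6, 42.5 and 40.6 CPM, and the letter profiles differed with an adjusted p of 9.54e-15 (edgeR). Leaving out the 3 libraries that stand apart gave 49 members and 9889 of 14355 genes, with a median of -0.41.

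The members moved together from library to library. After the group means were removed, a member's log2 CPM correlated with the mean of the other members with a median r of 0.95 over the 46 D2 libraries (lowest 0.37). For 48 of 50 members r exceeded 0.8, as it did for 28.19% of the other genes. With the letter also removed, the median r was 0.72, with 8 members (16%) above 0.8 against 1.33% of other genes. In D1 libraries the median r was 0.76 (n = 45), with 42% of members above 0.8 against 9.4% of other genes. Without the 3 libraries that stand apart it was 0.87 (n = 42), with 62% of members against 15.37% of other genes. With the letter also removed the D1 median was 0.60 (n = 44), and 0.76 without those libraries (n = 41). These correlations are descriptions: the libraries share depth and letter, and scaling to a total ties genes of one library to each other.

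Some members went with the others weakly. ENSMUSG00000028234 had an r of -0.19 in D1 and 0.48 in D2 libraries before the letter was removed, and -0.09 and -0.17 after. Without the 3 libraries that stand apart, the lowest r of any member in D1 libraries was 0.115, and 0.028 with the letter also removed. The negative D1 values therefore rested on those libraries. ENSMUSG00000037805 had an r of 0.37 in D2 libraries. Rpl22 had an r of 0.81 in D2 and 0.51 in D1 libraries, the latter with the 3 libraries that stand apart included.

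**Figure D3:**
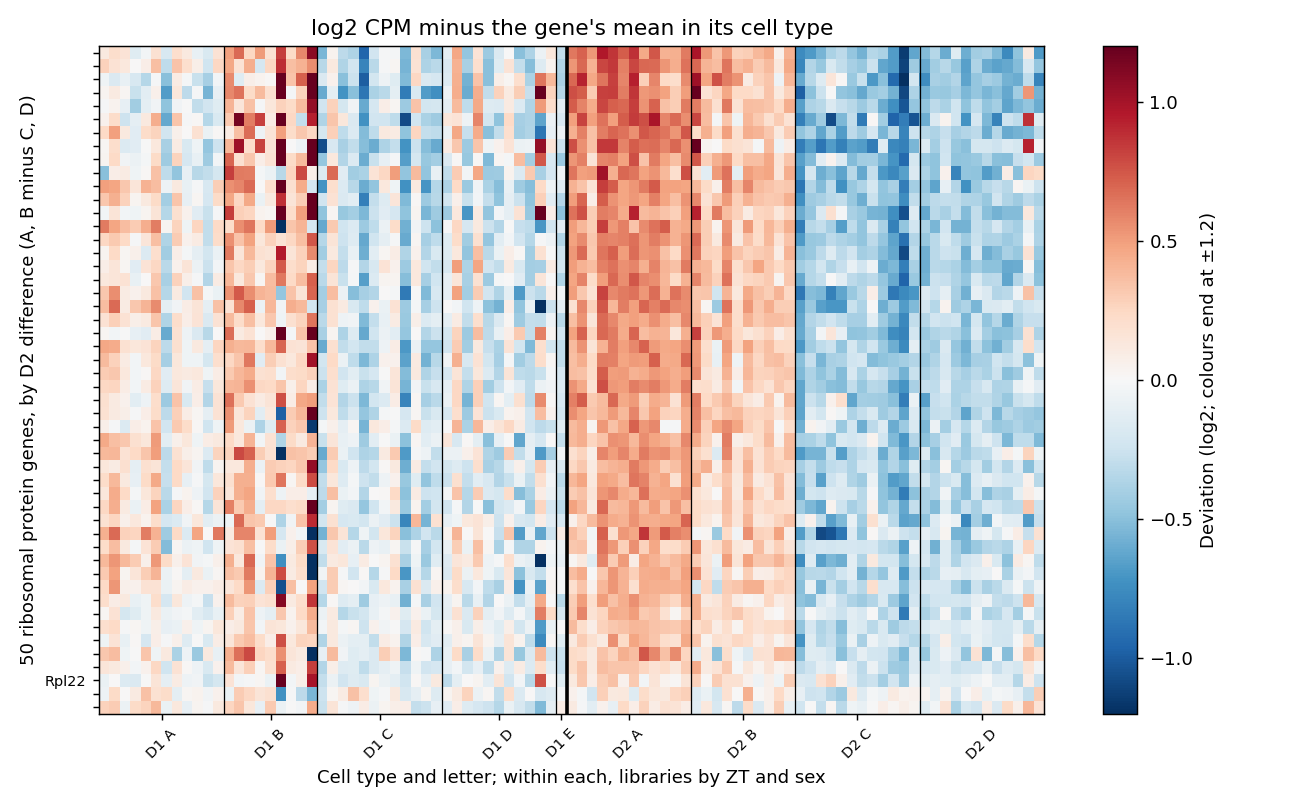
Deviation of each of the 50 ribosomal protein genes (rows) from its mean in the same cell type, in log2 CPM, for 91 libraries (columns) ordered by cell type, letter, ZT and sex; rows are ordered by the D2 letter difference. Nearly whole columns share a colour, with A and B above C and D in D2 neurons, whereas the 3 D1 male libraries that stand apart hold both extremes.

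Rhythm over the day was tested with a cosine and a sine term of 24 h. In D1 neurons 0 of 50 members were called by edgeR, where 0.495% of all genes were. 5 members had an unadjusted p under 0.05, as did 1803 of 14355 genes, and DESeq2 also called 0 members. Without the 3 libraries that stand apart edgeR called 0 members and 177 of 14355 genes, and 7 members had an unadjusted p under 0.05. The median amplitude, the height from mean to peak, was 0.11 on the log2 scale against 0.09 over all genes. The share of counts by time lay between 0.21% ± 0.03 at ZT18 (SD, n = 6) and 0.24% ± 0.03 at ZT2 (SD, n = 8), a difference within the spread of libraries. The member of lowest p, ENSMUSG00000030432, had 8.84 to 19.6 CPM at ZT2 (median 15.8, n = 8) and 6.48 to 15.0 CPM at ZT18 (median 9.90, n = 6). These ranges overlapped (amplitude 0.21 ± 0.07, SE, edgeR, adjusted p = 0.29). ENSMUSG00000037563 followed, with an amplitude of 0.29 ± 0.10 (SE, edgeR, adjusted p = 0.298).

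In D2 neurons 0 members were called by edgeR, where 2.94% of all genes were, 1 had an unadjusted p under 0.05, and DESeq2 called 0. The median amplitude was 0.06 against 0.07 over all genes. The share of counts lay between 0.20% ± 0.05 at ZT18 (n = 8) and 0.22% ± 0.05 at ZT10 (SD, n = 8). Within letters the means at the 6 times spanned 0.26% to 0.28% in A, 0.23% to 0.28% in B, 0.15% to 0.18% in C and 0.16% to 0.18% in D. The highest mean of B, at ZT2, is a single library.

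The letters paired the D2 libraries, so the letter was also fitted as a block. With it 8 members (16%) were rhythmic, where 22.3% of all genes were. Their amplitudes were small, from 0.09 to 0.22 on the log2 scale. ENSMUSG00000090862 peaked at ZT18.3 (amplitude 0.22 ± 0.04, SE, edgeR, adjusted p = 0.00078). Its levels were 8.41 to 15.9 CPM at ZT18 (median 10.8, n = 8) and 4.47 to 15.7 CPM at ZT6 (median 9.32, n = 7), which overlap when letters are pooled. ENSMUSG00000032518 peaked at ZT7.3 (amplitude 0.20 ± 0.04, SE, edgeR, adjusted p = 0.00148). Rpl22 was called too, with a peak at ZT6.8 and an amplitude of 0.10 ± 0.03 (SE, edgeR, adjusted p = 0.0241). Its median was 37.4 CPM at ZT6 (n = 7) and 33.2 CPM at ZT18 (n = 8). The call of Rpl22 was absent without the block (adjusted p = 0.541).

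Within single letters, 1 member was rhythmic in D2 letter B (1.08% of all genes), 3 in letter C (1.94%) and 0 in A and D (edgeR). In A and D 3 and 7 members had an unadjusted p under 0.05, as did 2217 and 2130 of 14355 genes. In D1 neurons 21 were called in letter B (29% of all genes) and 0 in A, C and D. An unadjusted p under 0.05 was held there by 4, 0 and 2 members, and by 517, 504 and 1588 of 14355 genes. Letter B of D1 neurons holds 9 libraries, 2 of which stand apart, and its fit by sex could not be repeated without them.

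**Figure D4:**
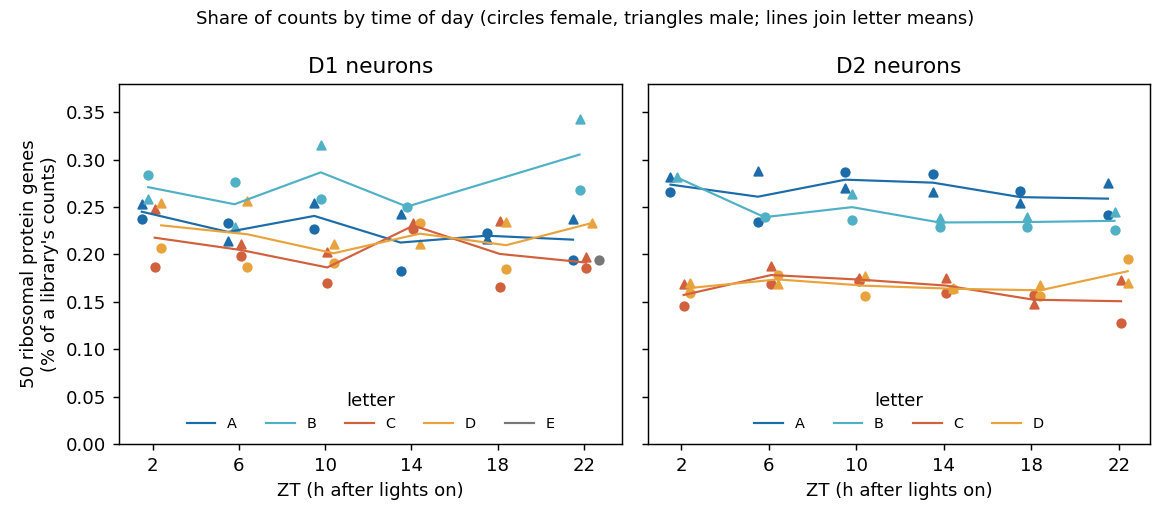
Share of each library's counts taken by the 50 ribosomal protein genes (y axis, percent) by time of day (x axis, ZT in hours), for D1 and D2 neurons; points are libraries (circles female, triangles male) and lines join the means of a letter. The lines of D2 letters A and B stay above those of C and D at every time.

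The rhythm test of D1 against D2 neurons was passed by 0 members and 0.0139% of all genes (edgeR). 5 members had an unadjusted p under 0.05, as did 1215 of 14355 genes, and DESeq2 called 0 members. The test of male against female rhythm was passed by 0 members in D1 (0% of all genes) and by 0 in D2 neurons (0% of all genes). The members with an unadjusted p under 0.05 numbered 4 and 0 (226 and 389 of 14355 genes), and DESeq2 called 0 members in both. After the 3 libraries that stand apart were left out, edgeR again called 0 members for D1 against D2 rhythm (1 gene in all, 5 members with an unadjusted p under 0.05) and for sex in D1 neurons (0 genes, 2 members). Over all 14355 genes, 975 and 279 had such an unadjusted p.

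The mean level was then compared between the cell types. Over all libraries 0 of 50 members were called by edgeR, where 19.3% of all genes were. 7 had an unadjusted p under 0.05, as did 4563 of 14355 genes, and DESeq2 called 3 members. Fitted differences, D1 minus D2, were above 0 for 45 members, with a median of 0.09 on the log2 scale (1.06-fold). After the 3 libraries that stand apart were left out, 0 members and 2795 of 14355 genes were called by edgeR, and the median was 0.06. An unadjusted p under 0.05 was held by 3 members and 4336 genes in that fit. In bulk libraries, fewer cells and less RNA per cell cannot be told apart. Rpl22 had 28.6 to 95.0 CPM in D1 (median 34.5, n = 45) and 26.4 to 45.2 CPM in D2 neurons (median 35.5, n = 46). Its difference was 0.05 ± 0.06 (SE, edgeR, adjusted p = 0.576), and -0.05 without the 3 libraries that stand apart. ENSMUSG00000028495, of lowest p, had 22.7 to 67.3 CPM in D1 (median 40.0) and 18.8 to 55.7 CPM in D2 neurons (median 34.7). Its difference was 0.20 ± 0.08 (SE, edgeR, adjusted p = 0.0509).

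Within letters the difference took opposite signs. The labels do not say whether D1 and D2 libraries of the same letter were handled together. Cell type and handling therefore cannot be told apart within a letter. Within letter A 43 members were lower in D1 than in D2 neurons, where 24.4% of all genes were, and the median was -0.25 on the log2 scale. Within letter C 46 members were higher in D1 neurons (28.1% of all genes, median 0.34), and within letter D 38 were (28% of all genes, median 0.33). 34 members were called lower in D1 neurons within A and higher within both C and D. 0 were called the same way in all of A to D. Neither count was made over all genes, so whether they set the members apart from other genes was not tested. In the separate test of letter terms, in any direction, 64.8% of all genes differed between the cell types. Within letter B 23 members were called higher in D1 neurons (20.8% of all genes) and 5 lower, with a median of 0.17. Over all 14355 genes, 6933 were called within B, and 2980 of these were higher in D1 neurons.

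Letter B depended on the libraries that stand apart. With a single rhythm for both sexes, a model added so that they could be left out, 5 members were higher in D1 neurons within B (3.96% of all genes, median 0.15) and 1 was lower. Without them 0 were by edgeR (2.17% of all genes, median 0.02), and 2 had an unadjusted p under 0.05. In letter D the same model without its library that stands apart gave 38 members higher in D1 neurons (28.6% of all genes, median 0.31).

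ENSMUSG00000032518 had 57.8 to 384.8 CPM in D1 (median 109.8) and 37.2 to 188.3 CPM in D2 neurons (median 91.6). Its difference, D1 minus D2, was -0.44 ± 0.07 within A, 0.51 ± 0.09 within C and 0.86 ± 0.07 within D (SE, edgeR, adjusted p at most 0.000234). Rpl22 differed by -0.21 ± 0.04 within A (SE, edgeR, adjusted p = 0.000769). It was not called within C (0.06 ± 0.05, adjusted p = 0.382) or D (0.12 ± 0.07, adjusted p = 0.183). Within B its difference was 0.50 ± 0.06 (adjusted p = 6.36e-06). With the single rhythm it was 0.33 (adjusted p = 0.179), and after those libraries were left out it was -0.13 (adjusted p = 0.565).

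With the letter as a block shared by both cell types, 26 members were called higher in D1 neurons (22.7% of all genes), with a median of 0.13. That block takes the letter differences as equal in both cell types, whereas the letter terms differed for 48 members. With the block but not the 3 libraries that stand apart, 21 members were called (25.9% of all genes). Without the block, leaving out letter A gave 37 members, all higher in D1 neurons, as were 3578 of 14355 genes. Leaving out B, C or D gave 1, 0 and 0 members by edgeR, with 2333, 2092 and 1767 genes called and 4, 2 and 1 members with an unadjusted p under 0.05. Over all 14355 genes, 4091, 3499 and 2870 had one.

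**Figure D5:**
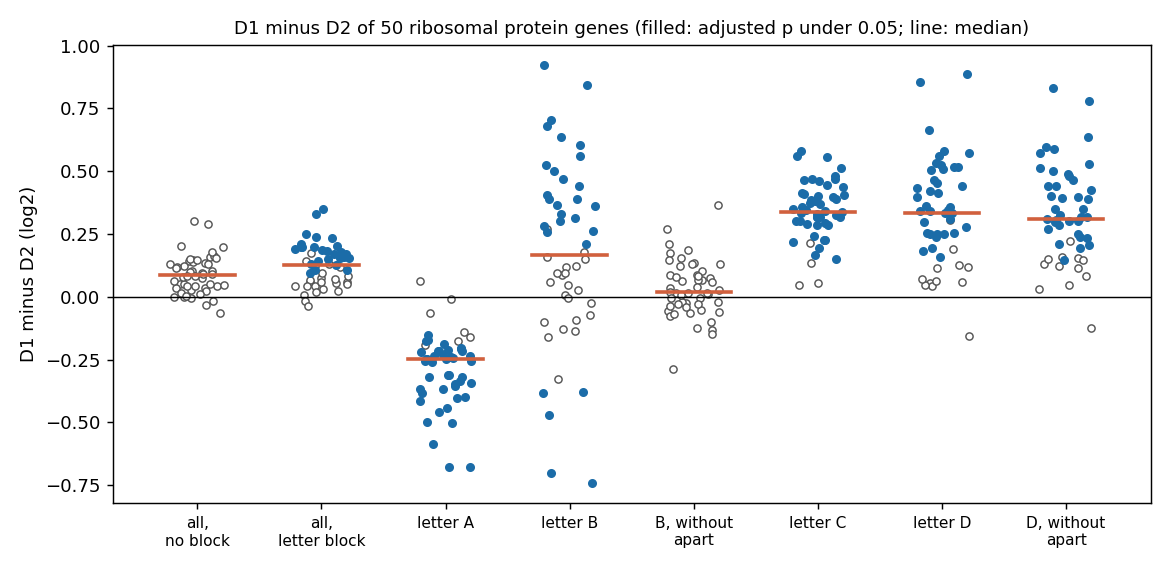
D1 minus D2 difference in level (log2, y axis) of the 50 ribosomal protein genes over all libraries (without and with a letter block), within each letter, and within B and D by the single-rhythm model that leaves out the libraries that stand apart; filled points have an adjusted p under 0.05 and lines are medians. The median is -0.25 in letter A and 0.34 and 0.33 in letters C and D.

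Males and females were compared in each cell type. In D1 neurons 0 members were called by DESeq2, which gave no adjusted p for 13 of the 50 and so could not call these. By edgeR 0 were called too, where 0.0418% of all genes were. 20 members had an unadjusted p under 0.05, as did 2223 of 14355 genes. Fitted differences, male minus female, were above 0 for 41 members, with a median of 0.15 on the log2 scale. Without the 3 male libraries that stand apart the median was 0.10 and edgeR again called 0 members. In that fit 3 members had an unadjusted p under 0.05, as did 994 of 14355 genes. With letter B left out, edgeR called 9 members, all higher in males, as were 232 of 14355 genes. The letter as a block gave 19 members, all higher in males, as were 774 genes. With that block but not the 3 libraries that stand apart, 2 members and 17 genes were called higher. ENSMUSG00000017404, of lowest p, had 23.4 to 63.6 CPM in females (median 34.8, n = 23) and 25.6 to 225.7 CPM in males (median 46.4, n = 22). Its difference of 0.68 ± 0.18 (SE, edgeR, adjusted p = 0.204) became 0.27 without those libraries. Rpl22 had 28.6 to 40.2 CPM in females and 31.1 to 95.0 CPM in males, and its difference of 0.32 ± 0.09 (SE, edgeR, adjusted p = 0.204) became 0.12.

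In D2 neurons 0 members were called by DESeq2, which gave no adjusted p for 40 of the 50 and so could not call these. By edgeR 0 were called too, where 0.216% of all genes were. An unadjusted edgeR p under 0.05 was held by 0 members and 515 of 14355 genes. Fitted differences were above 0 for all 50 members, with a median of 0.10 and a range from 0.01 to 0.18. With the library total as a covariate the median was -0.01 and 20 members were above 0. With the letter as a block 8 members (16%) were called higher in males, where 5.01% of all genes were. ENSMUSG00000043716 had 45.4 to 116.0 CPM in females (median 64.9) and 52.3 to 125.0 CPM in males (median 71.1, n = 23 each). These ranges overlap over most of their width, and the blocked difference was 0.13 ± 0.04 (SE, edgeR, adjusted p = 0.0167). For ENSMUSG00000071415 it was 0.12 ± 0.04 (SE, edgeR, adjusted p = 0.0225), and for Rpl22 0.01 ± 0.04 (SE, edgeR, adjusted p = 0.843).

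Within letters the sex difference was uneven. In D2 neurons the median over members was 0.05, 0.19, 0.13 and -0.01 on the log2 scale in A, B, C and D. 15 members were called in B (17.7% of all genes) and 0 in A, C and D by edgeR, where 4, 11 and 3 had an unadjusted p under 0.05. Over all 14355 genes, 950, 1262 and 1059 had one in A, C and D. In D1 neurons the medians were 0.15, 0.20, 0.25 and 0.20. 24 members were called in B (18 higher and 6 lower in males), where 37.6% of all genes were and where 2 of the male libraries stand apart. 0 were called in A, C and D by edgeR, where 7, 24 and 19 had an unadjusted p under 0.05. Over all 14355 genes, 441, 2256 and 2194 had one there.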

How the data were processed

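The deposited table holds raw counts per gene for 91 libraries, deposited by the authors without normalisation. According to the submitters' processing notes, FastQC 0.11.7, HISAT2 and HTSeq 0.10.0 were used, with the builds GRCm38 and GRCh38, whose roles are not given in the sources used here. Per the name of the deposited table, genes were filtered on log CPM, at a threshold not given in the sources used here.

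Counts were fitted in R 4.3.3 with edgeR 4.0.16 (TMM, quasi-likelihood F-test), and p-values were adjusted by Benjamini-Hochberg over all 14355 genes, with a threshold of 0.05. A mean, a cosine and a sine term (period 24 h) were fitted for each sex, in fits of D1, D2 or all libraries. The scripts were tested on simulated data. Alternatives were DESeq2 1.42.0, RLE factors, TMM without the members, filterByExpr, time as a factor, depth as a covariate, a letter block, each letter left out, and 3 libraries left out. Fits within letters, the test of letter terms between cell types and the block without the 3 libraries were added after the data were seen.

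The members, the lists and the split of A, B against C, D were chosen with earlier results of these data known. Genes were named by lowest p per comparison and direction. Because symbols could not be paired (0 identifiers matched), at most 2 identifiers per direction are printed beside Rpl22, and the lists of markers and other pathways, fixed by symbol, were not scored. Deviations from group means correlated above 0.1 in all 243 same-letter pairs of D2 libraries (lowest 0.189) and in 148 of 223 pairs of D1 libraries (lowest -0.602). The letters were therefore taken to pair D2 libraries only, although levels differed between letters in D1 neurons too (58.4% of all genes). No library of a group was a copy of another (129 pairs). The labels do not say whether libraries of a group come from separate animals, so p-values measure the spread between these libraries, which may be technical.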

Additional observations from a re-analysis of the deposited data

Results flagged for a closer look

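52 sets of 4 to 10 libraries (groups, times or letters) were checked for a library far from the rest, and 2 held one, where chance gives about 1 in 20. Among D1 female libraries of ZT22, letter B had 0.268% of its counts in the members, against 0.1858% to 0.1939% in the other 3. Among D1 male libraries of ZT10, letter B had 95.03 CPM of Rpl22, against 36.81 to 39.99 CPM in the other 3. A difference between groups was found for the letter terms, which differed between D1 and D2 neurons for 48 of 50 members in a test added after the data were seen.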

How the results depend on the processing

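The counts of members rhythmic in D1 neurons, differing in rhythm between cell types or sexes, and differing between letters stayed within 1.5 times the reported value in all alternatives run. In D2 neurons the count of rhythmic members went from 0 to 1 with depth as a covariate and to 8 with the letter as a block. For D1 against D2 levels it went from 0 (2770 genes in all) to 14 with depth as a covariate (4400 genes), 3 with DESeq2 (3095), 2 with RLE factors (2898), 3 with TMM without the members (2982), 26 with the block and 21 with the block without the 3 libraries. Leaving out each letter in turn gave 0 to 37. For sex in D1 neurons, whose libraries share only a letter, the count was 19 with the block (774 of 14355 genes higher in males), 2 with the block without the 3 libraries (17 genes), and 0 to 9 with each letter left out, the 9 without letter B. For sex in D2 neurons it was 8 with the block. Rhythm in D2 females and D2 males alone went from 0 to 5 members each with the block (1799 and 1308 of 14355 genes). The block changed the count of no other comparison between cell types, sexes or times by over 1.5 times. DESeq2 gave no adjusted p for 13 members in the sex test of D1 and for 40 in that of D2 neurons. The cause of these shifts was not tested. Of 594 alternative values for 65 results of single members, 547 kept direction and side of the threshold, 39 gained the threshold, 2 lost it, 6 changed sign without a call and 0 reversed. The depth of the libraries differed with the letter, and the lowest count of a member was 17.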
